A study of Mus musculus with 9 samples.

Results

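The 39 genes described here encode proteins that load the DNA helicase at replication origins, start and run the replication fork, supply deoxynucleotides, switch on S phase or rebuild chromatin behind the fork. They were chosen by name from their known functions, with earlier results of these data known, out of 54432 genes in the count table. Each name matched 1 Ensembl identifier. All 39 genes passed the filter of more than 10 counts in at least 3 of 9 libraries, which left 12637 genes for testing. RNAseq was performed on RAW 264.7 cells, a mouse macrophage-like line that keeps dividing in culture. The 3 libraries of each group came from untreated control cells, from cells exposed for 6 hours to VLDL-sized particles at 1 mM, and from cells exposed for the same time and at the same dose to chylomicron-sized (CHYL-sized) particles. The doses are those of the labels and methods, while a legend of the study names a lower dose for CHYL-sized particles in these cells. Both emulsions were sunflower oil dispersed with caseinate and differed in droplet size, and control cells received no emulsion. Each library was a pool of the samples of 1 condition from 1 experiment, and both particle groups were compared with the same 3 control libraries.

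A cell copies its genome once per cycle in ordered steps. In G1 the origin recognition complex, CDC6 and CDT1 place rings of 6 MCM proteins on DNA, and at the start of S phase the kinase CDK2 with cyclin E, together with a DDK kinase, lets CDC45 and GINS turn each ring into a running helicase. DNA polymerases, the sliding clamp PCNA and its loader RFC then copy both strands. Many of these genes are switched on at the border of G1 and S phase by E2F transcription factors.

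The libraries held 22393893 to 22856792 counts, so depth was nearly equal, and each of the 39 genes had between 210 and 16063 counts in every library. The summed level of 10 macrophage markers was 6930 to 7010 cpm (counts scaled to a common library size of 1000000) in control, 6180 to 6380 cpm after VLDL-sized and 6360 to 6560 cpm after CHYL-sized particles. All 5 epithelial markers were at 0, and the summed markers of fibroblasts, T cells, B cells and endothelial cells stayed at or under 2.53 cpm in every library. The libraries of replicate 3 stood apart from those of replicates 1 and 2 in all 3 groups. For 19 of the 39 genes replicate 3 was the highest library of its group in all 3 groups, compared with 18.8% of all genes tested. In bulk RNA, fewer cells in S phase and less of these mRNAs per cell cannot be told apart.

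Compared with control, mRNA of 36 of the 39 genes fell after VLDL-sized particles and none rose (limma-voom with Benjamini-Hochberg adjustment over all genes tested, adjusted p under 0.05). Of all 12637 genes, 17.9% fell. The median log2 fold change of the 39 genes was -0.50, whereas that of all genes was 0.00. After CHYL-sized particles 31 of the 39 genes fell and none rose, against 13.0% of all genes that fell. Here the median was -0.39 on the log2 scale. edgeR's quasi-likelihood test gave the same 36 and 31 as counts, DESeq2 gave 35 and 32, and neither called a rise among the 39. Over all genes and in either direction, edgeR called 4513 and 3241 and DESeq2 4397 and 3231. At an unadjusted p under 0.05, 38 genes passed in each comparison, against 44.7% of all genes after VLDL-sized and 37.0% after CHYL-sized particles, in either direction. After CHYL-sized particles these included *Pcna*, which was higher, and not *Gins4*. The p-values measure only the spread between these libraries. The 31 genes that fell after CHYL-sized particles all fell after VLDL-sized particles too, but the comparisons share their controls. Omitting all libraries of replicate 3, a choice made after seeing the data, 38 genes fell and 1 rose after VLDL-sized particles, with a median of -0.54, while 21.4% of all genes fell. In the same setting 36 fell and 1 rose after CHYL-sized particles, with a median of -0.38, while 16.4% of all genes fell.

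Summed over the 39 genes, the level was 5121, 5167 and 5456 cpm in the control libraries. It was 3749, 3831 and 4175 cpm after VLDL-sized particles and 4035, 4189 and 4377 cpm after CHYL-sized particles. Every treated library lay below every control library. In each of the 6 treated libraries 38 of the 39 genes were below the control mean, the exception being *Pcna*. All 3 VLDL-sized libraries lay below all 3 control libraries for 35 of the genes, compared with 23.7% of all genes. For CHYL-sized particles the count was 34 of the genes, compared with 20.9% of all genes.

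**Figure D1:**
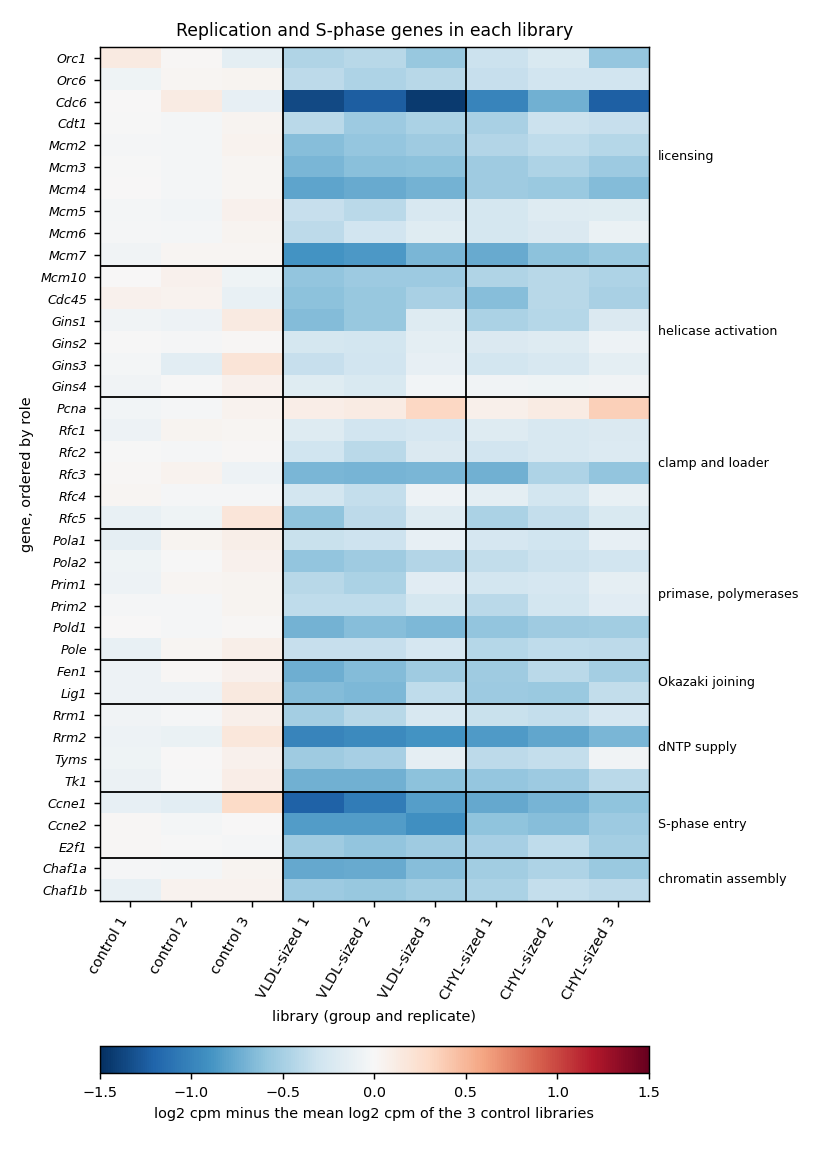
Log2 cpm of each of the 39 genes (rows, grouped by role) in each of the 9 libraries (columns), minus the mean log2 cpm of the 3 control libraries. Blue is lower and red is higher than control. *Cdc6* is the darkest row, *Pcna* is the only row that is red in all 6 treated libraries, and the columns of replicate 3 are paler for genes such as *Gins1* and *Tyms*.

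All 10 licensing genes fell after VLDL-sized particles, with a median log2 fold change of -0.54, and all 10 fell after CHYL-sized particles, with a median of -0.40. *Cdc6* (ENSMUSG00000017499, chromosome 11 from 98907801 to 98923940 in GRCm38), which encodes the ATPase that joins the origin recognition complex to receive the MCM ring, changed most of the 39 genes. It stood at 68.5, 74.4 and 62.8 cpm in control, at 26.4, 28.8 and 24.9 cpm after VLDL-sized particles and at 34.1, 41.1 and 29.1 cpm after CHYL-sized particles. The treated libraries were all well below the control libraries, and the VLDL-sized libraries were all below the CHYL-sized ones. The log2 fold change was -1.36 (standard error 0.12, adjusted p = 1.1e-05) after VLDL-sized particles, a 2.57-fold fall. After CHYL-sized particles it was -0.99 (standard error 0.11, adjusted p = 0.00011), a 1.99-fold fall.

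*Cdt1*, which encodes the partner of CDC6 in loading the ring, was at 144, 141 and 149 cpm in control, at 109, 99.3 and 104 cpm after VLDL-sized particles and at 103, 116 and 114 cpm after CHYL-sized particles. The treated and control libraries did not overlap. Its log2 fold changes of -0.48 (standard error 0.06, adjusted p = 0.00011) and -0.38 (standard error 0.06, adjusted p = 0.00075) were smaller than those of *Cdc6*. Within a library, where scaling between libraries has no effect, the ratio of *Cdc6* to *Cdt1* was 0.474 ± 0.0521 in control, 0.257 ± 0.0283 after VLDL-sized and 0.313 ± 0.0518 after CHYL-sized particles (SD, n = 3). *Orc1* and *Orc6*, which encode subunits of the origin recognition complex, fell by 0.50 and 0.43 on the log2 scale after VLDL-sized particles (adjusted p = 0.0063 and 0.00017). After CHYL-sized particles they fell by 0.39 and 0.31 (adjusted p = 0.027 and 0.0019).

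The 6 MCM genes fell by different amounts. *Mcm7* was at 161, 169 and 169 cpm in control, at 88.9, 91.5 and 103 cpm after VLDL-sized particles and at 98.1, 108 and 113 cpm after CHYL-sized particles. No treated library reached the control range. Its log2 fold changes were -0.82 (standard error 0.07, adjusted p = 1.1e-05) and -0.65 (standard error 0.07, adjusted p = 8.8e-05), the largest of the ring. *Mcm6* had the smallest, -0.28 (standard error 0.06, adjusted p = 0.0052) and -0.19 (standard error 0.06, adjusted p = 0.046). Its level stood at 485, 480 and 504 cpm in control, at 373, 403 and 432 cpm after VLDL-sized particles and at 407, 421 and 458 cpm after CHYL-sized particles, again without overlap with control.

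Between these lay *Mcm4* with -0.75 and -0.58, *Mcm3* with -0.65 and -0.52, *Mcm2* with -0.58 and -0.41 and *Mcm5* with -0.33 and -0.22 on the log2 scale, after VLDL-sized and CHYL-sized particles respectively. All of them passed the test in both comparisons. The ratio of *Mcm7* to *Mcm6* counts within a library was 0.331, 0.353 and 0.336 in control, 0.238, 0.227 and 0.239 after VLDL-sized and 0.241, 0.257 and 0.247 after CHYL-sized particles. The ratio was lower in every treated library than in every control library. The ratio of *Mcm4* to *Mcm6* went from 0.331 ± 0.00334 in control to 0.239 ± 0.0104 and 0.253 ± 0.0251 (SD, n = 3), also without overlap. These ratios were formed after the values had been seen and were not tested.

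The 180 bases upstream of the RefSeq start of 5 of the genes are shown, on GRCm38.p6 and written 5′ to 3′ on the strand of the gene. These are examples picked by name. All but *Pcna* hold an E2F-type site in the stretch. Of the 31 genes with a promoter window, which runs from 250 bases before to 50 bases after the start, 19 held none in that window. *Cdt1*, *Lig1*, *Mcm3* and *Pold1* held sites only after the start, outside the region of these stretches. Capitals mark an E2F-type site, searched as TTTCCCGC, TTTCGCGC, TTTGCCGC or TTTGGCGC on both strands, so that the reverse complements GCGGGAAA, GCGCGAAA, GCGGCAAA and GCGCCAAA count as well. The stretches are chr11:98907971-98908150 on the plus strand for *Cdc6*, chr8:75109329-75109508 on the plus strand for *Mcm5*, chr1:128359706-128359885 on the minus strand for *Mcm6*, chr5:138171884-138172063 on the minus strand for *Mcm7* and chr2:132253181-132253360 on the minus strand for *Pcna*.
Cdc6: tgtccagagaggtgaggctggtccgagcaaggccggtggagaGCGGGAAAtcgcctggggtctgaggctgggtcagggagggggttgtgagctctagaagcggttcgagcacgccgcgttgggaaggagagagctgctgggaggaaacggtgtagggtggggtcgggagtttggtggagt
Mcm5: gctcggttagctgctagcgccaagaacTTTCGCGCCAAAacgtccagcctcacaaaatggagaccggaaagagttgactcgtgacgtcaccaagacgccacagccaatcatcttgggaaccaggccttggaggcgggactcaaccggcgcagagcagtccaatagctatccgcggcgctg
Mcm6: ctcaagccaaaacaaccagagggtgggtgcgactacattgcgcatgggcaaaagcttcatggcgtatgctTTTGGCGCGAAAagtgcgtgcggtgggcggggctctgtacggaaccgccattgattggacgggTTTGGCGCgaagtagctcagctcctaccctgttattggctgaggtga
Mcm7: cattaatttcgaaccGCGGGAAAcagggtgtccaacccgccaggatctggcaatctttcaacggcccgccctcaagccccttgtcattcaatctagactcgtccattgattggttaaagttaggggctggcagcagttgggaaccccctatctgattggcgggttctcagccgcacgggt
Pcna: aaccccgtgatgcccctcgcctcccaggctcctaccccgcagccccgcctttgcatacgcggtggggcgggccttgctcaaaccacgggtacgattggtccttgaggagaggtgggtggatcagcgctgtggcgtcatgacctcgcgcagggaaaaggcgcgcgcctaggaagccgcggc
*Mcm6* holds 3 sites in this stretch, of which a pair shares bases, and *Mcm5* holds 2 that share bases. *Cdc6* and *Mcm7* hold 1 each, and *Mcm7* has another downstream of its start. These letters do not occur in the stretch of *Pcna*. RefSeq and GENCODE starts differ, so that by the GENCODE positions all 180 bases of the *Cdc6* and *Mcm7* stretches and 134 of those of *Pcna* lie inside the gene. *Mcm7* has 2 RefSeq windows, and the one with more sites is shown.

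Windows from 250 bases before to 50 bases after the start were given for 31 of the 39 genes, and a gene with several windows was counted once, by the window with most sites. A site occurred in 12 of them (38.7%), which were those of *Cdc6*, *Cdt1*, *Orc1*, *Mcm3*, *Mcm5*, *Mcm6*, *Mcm7*, *Gins3*, *Rfc3*, *Pola1*, *Pold1* and *Lig1*. Among the windows of all 27025 genes from the same source, 2.6% held a site, and among 17492 protein-coding genes 3.29% did. At least 2 sites were found for 5 of the 31 genes and for 0.107% of all genes. Of the 12 with a site, 11 fell after VLDL-sized particles, with a median log2 fold change of -0.53. Of the 19 without one, 18 fell, with a median of -0.55. A match describes letters only and does not show that a factor was bound.

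The genes that turn the loaded ring into a helicase fell less evenly. *Mcm10*, *Cdc45* and *Gins1* fell after both particles. *Gins2* fell by 0.23 on the log2 scale after VLDL-sized particles (adjusted p = 0.012) and had -0.16 after CHYL-sized particles (adjusted p = 0.067). *Cdc45*, which encodes the factor that completes the helicase with GINS, was at 41.2, 40.9 and 36.4 cpm in control, at 25.5, 26.5 and 28.1 cpm after VLDL-sized particles and at 25.2, 29.4 and 28.1 cpm after CHYL-sized particles. Its groups did not overlap with control, and its log2 fold changes were -0.56 (standard error 0.08, adjusted p = 0.00028) and -0.52 (standard error 0.08, adjusted p = 0.00073). *Mcm10*, which encodes a factor that starts the helicase, had log2 fold changes of -0.56 and -0.45 (adjusted p = 1.8e-05 and 0.00013).

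GINS is a complex of 4 subunits, and their mRNAs differed. *Gins1* was at 39.5, 38.7 and 44.8 cpm in control and at 26.0, 27.5 and 35.7 cpm after VLDL-sized particles. On the log2 scale it fell by 0.47 (standard error 0.12, adjusted p = 0.0087). Its replicate 3 was the highest library of each group. *Gins4* was at 59.3, 60.8 and 64.0 cpm in control, at 54.2, 52.2 and 59.7 cpm after VLDL-sized particles and at 59.0, 58.5 and 59.3 cpm after CHYL-sized particles. Its VLDL-sized replicate 3 lay within the control range, and the log2 fold changes of -0.15 (adjusted p = 0.070) and -0.06 (adjusted p = 0.52) did not pass. *Gins3*, the lowest of the 4 at 18.1, 16.5 and 21.1 cpm in control and at 14.4, 15.1 and 16.9 cpm after VLDL-sized particles, had -0.26 (adjusted p = 0.076) and -0.23 (adjusted p = 0.13) and overlapped with control. With the replicate number as a block, *Gins3* and *Gins4* passed after VLDL-sized particles (adjusted p = 0.010 and 0.020). After CHYL-sized particles *Gins3* passed with the block (adjusted p = 0.021) and *Gins4* did not (adjusted p = 0.35). Over all genes tested, the numbers paired treated and control libraries only weakly. The correlation r of their deviations from the group mean was 0.29 and 0.34 for replicate 3 and 0.07 to 0.14 otherwise. Over the 39 genes, r was 0.44, 0.22 and 0.64 for VLDL-sized and control and 0.29, 0.45 and 0.61 for CHYL-sized and control. Control replicates 1 and 2 had r of 0.32 and 0.46 with VLDL-sized replicates 2 and 1. With CHYL-sized replicates 2 and 1 they had r of 0.44 and 0.14. Other calls that the block moved after CHYL-sized particles are given with the effects of the processing.

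*Pcna* encodes the ring that holds DNA polymerases on their template and also serves DNA repair. Its mRNA was the 1 exception among the 39. The level stood at 556, 562 and 594 cpm in control, at 609, 624 and 707 cpm after VLDL-sized particles and at 599, 621 and 733 cpm after CHYL-sized particles. Every treated library lay above every control library, by a small margin. With scaling by library size only this separation was lost, as control replicate 3 lay above replicate 1 of both treated groups. The log2 fold change was 0.18 (standard error 0.08) in both comparisons, with adjusted p = 0.11 and 0.12, so that no rise was called. Omitting all libraries of replicate 3 it passed in both comparisons, at 0.14 and 0.13 (adjusted p = 0.012 and 0.029). With the replicate number as a block it passed after VLDL-sized particles, at 0.18 (adjusted p = 0.0029), and after CHYL-sized particles, at 0.19 (adjusted p = 0.0029). With the block, 24.1% of all genes were called higher and 23.8% lower after VLDL-sized particles, and the other 38 genes were all called lower. After CHYL-sized particles 2468 of all 12637 genes were called higher and 2481 lower, and 37 of the other 38 genes were called lower. Scaled by library size only, *Pcna* had a log2 fold change of 0.08 after VLDL-sized particles and of 0.10 after CHYL-sized particles (adjusted p = 0.38 and 0.31).

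*Pcna* made up 10.9% of the summed level of the 39 genes in each of the 3 control libraries. After VLDL-sized particles it made up 16.3%, 16.3% and 16.9%, and after CHYL-sized particles 14.9%, 14.8% and 16.7%. These shares do not depend on scaling between libraries.

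The 5 RFC genes encode the loader that opens and closes PCNA around DNA. *Rfc3* was at 46.0, 47.0 and 43.2 cpm in control, at 28.0, 27.7 and 28.0 cpm after VLDL-sized particles and at 27.2, 32.9 and 29.9 cpm after CHYL-sized particles. No treated library came near the control range, and the log2 fold changes were -0.70 (standard error 0.07, adjusted p = 3.8e-05) and -0.60 (standard error 0.07, adjusted p = 0.00016). The ratio of *Pcna* to *Rfc3* was 12.6 ± 1.01 in control, 23.2 ± 1.84 after VLDL-sized and 21.8 ± 2.80 after CHYL-sized particles (SD, n = 3).

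*Rfc1*, the gene of the large subunit, fell by 0.24 and 0.22, *Rfc2* fell by 0.31 and 0.25 and *Rfc5* fell by 0.40 and 0.36 on the log2 scale. *Rfc4* had a log2 fold change of -0.24 after VLDL-sized particles, close to the threshold (adjusted p = 0.038). After CHYL-sized particles it had -0.18 (adjusted p = 0.12). Its control libraries were at 27.0, 26.2 and 26.2 cpm, and all treated libraries lay below them, VLDL-sized replicate 3 being the closest.

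All 6 genes of the primase and polymerases fell after VLDL-sized particles, and 4 of the 6 fell after CHYL-sized particles. *Pold1*, the catalytic subunit of the polymerase that copies the lagging strand, was at 85.7, 84.4 and 86.9 cpm in control, at 52.2, 54.7 and 53.6 cpm after VLDL-sized particles and at 56.9, 59.0 and 59.6 cpm after CHYL-sized particles. The groups were tight and did not overlap. The log2 fold changes were -0.68 (standard error 0.05, adjusted p = 2.5e-06) and -0.55 (standard error 0.05, adjusted p = 1.6e-05).

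*Pole*, the catalytic subunit of the leading strand polymerase, was at 45.5, 49.9 and 52.1 cpm in control, at 38.7, 38.6 and 41.2 cpm after VLDL-sized particles and at 36.2, 37.6 and 37.4 cpm after CHYL-sized particles. It was the 1 gene of the 39 for which all CHYL-sized libraries lay below all VLDL-sized ones. Its log2 fold changes against control were -0.31 (adjusted p = 0.0028) and -0.40 (adjusted p = 0.00099). Polymerase alpha and primase lay the first stretch of each new strand. *Pola2* had log2 fold changes of -0.53 and -0.33, *Prim2* had -0.34 and -0.29 and both passed in both comparisons. *Prim1* fell by 0.36 after VLDL-sized particles and had -0.22 (adjusted p = 0.071) after CHYL-sized particles. *Pola1* fell by 0.26 after VLDL-sized particles (adjusted p = 0.028) and had -0.23 (adjusted p = 0.058) after CHYL-sized particles. Its treated replicate 3 libraries, at 63.4 and 63.2 cpm, were above control replicate 1 at 62.8 cpm.

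*Fen1*, which encodes the nuclease that trims Okazaki fragments, and *Lig1*, the ligase that joins them, both fell. *Fen1* was at 136, 145 and 150 cpm in control, at 86.2, 91.5 and 98.6 cpm after VLDL-sized particles and at 98.8, 109 and 101 cpm after CHYL-sized particles, with log2 fold changes of -0.64 and -0.48 (adjusted p = 3.1e-05 and 0.00032). *Lig1* had log2 fold changes of -0.57 and -0.49 (adjusted p = 0.00076 and 0.0028). Neither gene had a treated library within the control range.

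Among the genes of deoxynucleotide supply, *Rrm2* changed most. It encodes the small subunit of ribonucleotide reductase, the enzyme that makes deoxynucleotides, and is known as the subunit whose amount follows S phase. *Rrm2* was at 226, 222 and 269 cpm in control, at 119, 123 and 127 cpm after VLDL-sized particles and at 132, 139 and 148 cpm after CHYL-sized particles. The control libraries were all above the treated ones, and the CHYL-sized libraries were all above the VLDL-sized ones. Its log2 fold changes were -0.95 (standard error 0.08, adjusted p = 7.2e-06) and -0.77 (standard error 0.08, adjusted p = 4.9e-05), so that its level fell by 48.3% and by 41.4%. *Rrm1*, the large subunit, fell by 0.39 and 0.32 on the log2 scale (adjusted p = 0.0012 and 0.0065). The ratio of *Rrm2* to *Rrm1* was 0.653, 0.626 and 0.713 in control, 0.473, 0.458 and 0.421 after VLDL-sized and 0.464, 0.496 and 0.493 after CHYL-sized particles, lower in every treated library.

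*Tk1*, which encodes the thymidine salvage kinase, was at 113, 119 and 128 cpm in control, at 72.3, 72.3 and 78.0 cpm after VLDL-sized particles and at 80.1, 82.0 and 90.2 cpm after CHYL-sized particles. Its groups did not overlap, and it fell by 0.69 and 0.51 on the log2 scale (adjusted p = 2.3e-05 and 0.00026). *Tyms*, the gene of thymidylate synthase, was at 44.6, 46.6 and 48.6 cpm in control, at 31.9, 32.8 and 42.3 cpm after VLDL-sized particles and at 35.3, 36.3 and 44.9 cpm after CHYL-sized particles. In both treated groups replicate 3 lay closest to control, and CHYL-sized replicate 3 lay within the control range. *Tyms* fell after VLDL-sized particles (log2 fold change -0.40, adjusted p = 0.020), whereas -0.27 after CHYL-sized particles did not pass (adjusted p = 0.11).

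The 3 genes of S-phase entry fell after both particles. *Ccne1*, which encodes a cyclin E that activates CDK2, was at 46.9, 45.4 and 62.0 cpm in control, at 21.8, 24.4 and 28.6 cpm after VLDL-sized particles and at 29.7, 31.3 and 33.3 cpm after CHYL-sized particles. Control replicate 3 was the highest library, and the groups did not overlap. The log2 fold changes were -1.04 (standard error 0.13, adjusted p = 0.00016) and -0.70 (standard error 0.13, adjusted p = 0.0023). *Ccne2*, the gene of the other cyclin E, was at 36.0, 35.1 and 35.9 cpm in control, at 19.7, 19.7 and 18.6 cpm after VLDL-sized particles and at 23.2, 22.8 and 24.2 cpm after CHYL-sized particles. Each group was narrow and separate from the others. Its log2 fold changes were -0.88 (standard error 0.06, adjusted p = 2.1e-06) and -0.61 (standard error 0.06, adjusted p = 3.4e-05).

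*E2f1*, the gene of an activating E2F factor, was at 80.2, 78.4 and 78.2 cpm in control, at 54.3, 52.0 and 54.3 cpm after VLDL-sized particles and at 55.7, 60.7 and 55.3 cpm after CHYL-sized particles. It fell by 0.56 and 0.46 on the log2 scale (adjusted p = 1.9e-05 and 0.00011). *Chaf1a* and *Chaf1b* encode subunits of the chaperone that puts histones on new DNA. *Chaf1a* was at 99.5, 98.9 and 104 cpm in control, at 58.8, 59.7 and 64.7 cpm after VLDL-sized particles and at 70.2, 72.8 and 68.3 cpm after CHYL-sized particles. The 3 groups were separate, with log2 fold changes against control of -0.72 and -0.52 (adjusted p = 4.2e-06 and 6.3e-05). *Chaf1b* fell by 0.55 and 0.41 (adjusted p = 0.00011 and 0.0010).

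**Figure D2:**
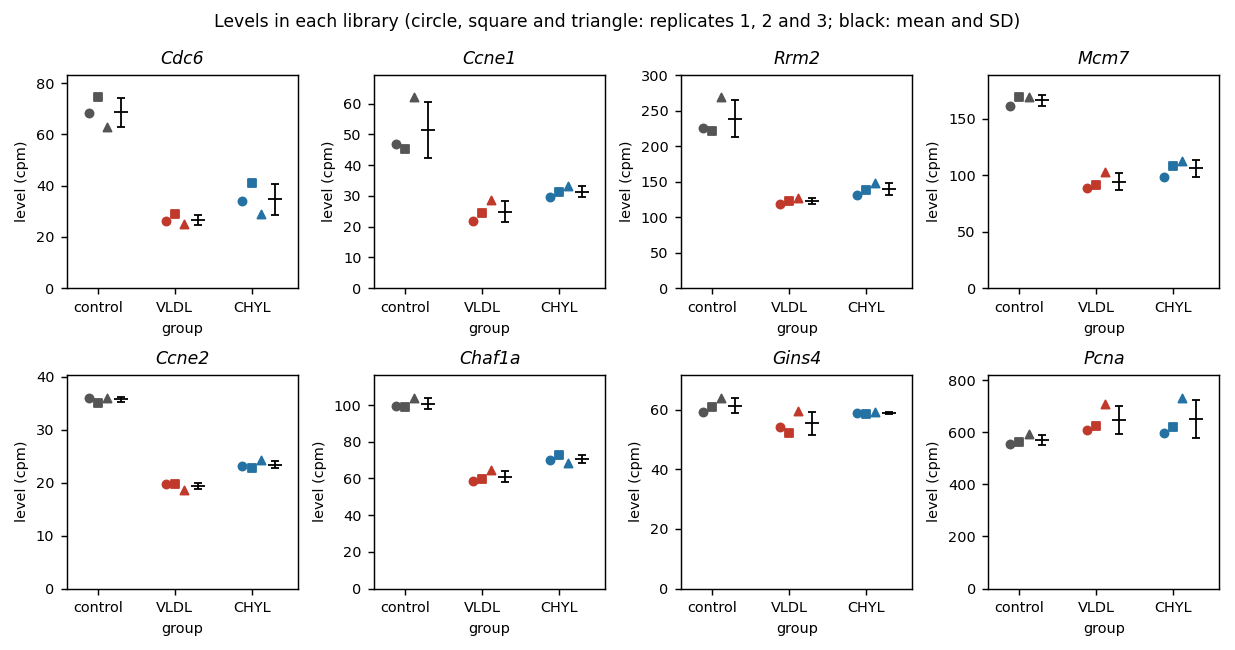
Level in cpm of 8 of the genes in each library, with a vertical axis from 0 in each panel, for control, VLDL-sized and CHYL-sized groups. Coloured symbols are libraries, and the black mark and bar are the mean and SD of 3 libraries. *Cdc6* went from 68.5 to 26.7 and 34.8 cpm on average, *Gins4* lay close to control at 61.4, 55.3 and 58.9 cpm, and *Pcna* was at 571, 647 and 651 cpm.

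**Figure D3:**
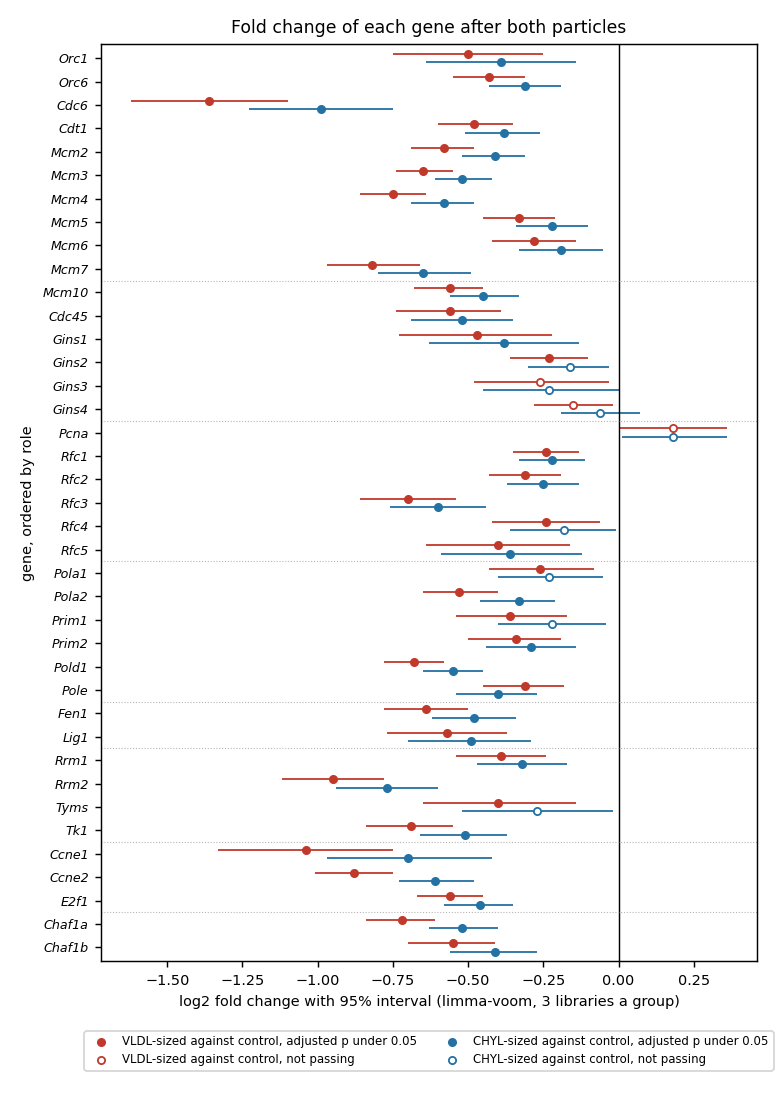
Log2 fold change against control of each gene with its 95% interval, after VLDL-sized (red) and CHYL-sized (blue) particles. Filled points had an adjusted p under 0.05. All points but those of *Pcna* lie left of 0, and 19 of the genes after VLDL-sized and 12 after CHYL-sized particles lie below -0.5.

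Levels can be compared between genes only per length of transcript, here the longest coding transcript that GENCODE lists for a gene. On that scale *Pcna* was the highest of the 39 genes, at 376 ± 13.5 cpm per kb in control (SD, n = 3), and *Orc1* the lowest, at 4.84 ± 0.489 cpm per kb. *Mcm3*, *Mcm2*, *Mcm5* and *Mcm6* lay at 112 to 130 cpm per kb in control, *Mcm7* at 56.1 ± 1.68 and *Mcm4* at 45.1 ± 1.05. Although the proteins form a ring with 1 copy of each, the highest and lowest subunit differed 2.88-fold in control, 3.45-fold after VLDL-sized and 3.27-fold after CHYL-sized particles. The highest was *Mcm3* in control and *Mcm6* in both treated groups. In ribonucleotide reductase *Rrm2* was above *Rrm1* in control, at 109 ± 11.8 and 89.9 ± 3.99 cpm per kb, and below it after VLDL-sized particles, at 56.2 ± 1.90 and 68.6 ± 6.53 cpm per kb. The order after CHYL-sized particles was the same as after VLDL-sized particles, at 63.7 ± 3.74 and 72.1 ± 2.72 cpm per kb. In cpm, *Rrm2* was below *Rrm1* in every library, so the order in control rests on the lengths used, 2193 and 3997 bases. Other transcript lengths would change the levels within each complex too, and the SD covers only the spread of libraries. The subunits of GINS were furthest apart, with *Gins4* at 45.5 ± 1.79 and *Gins3* at 7.36 ± 0.930 cpm per kb in control.

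**Figure D4:**
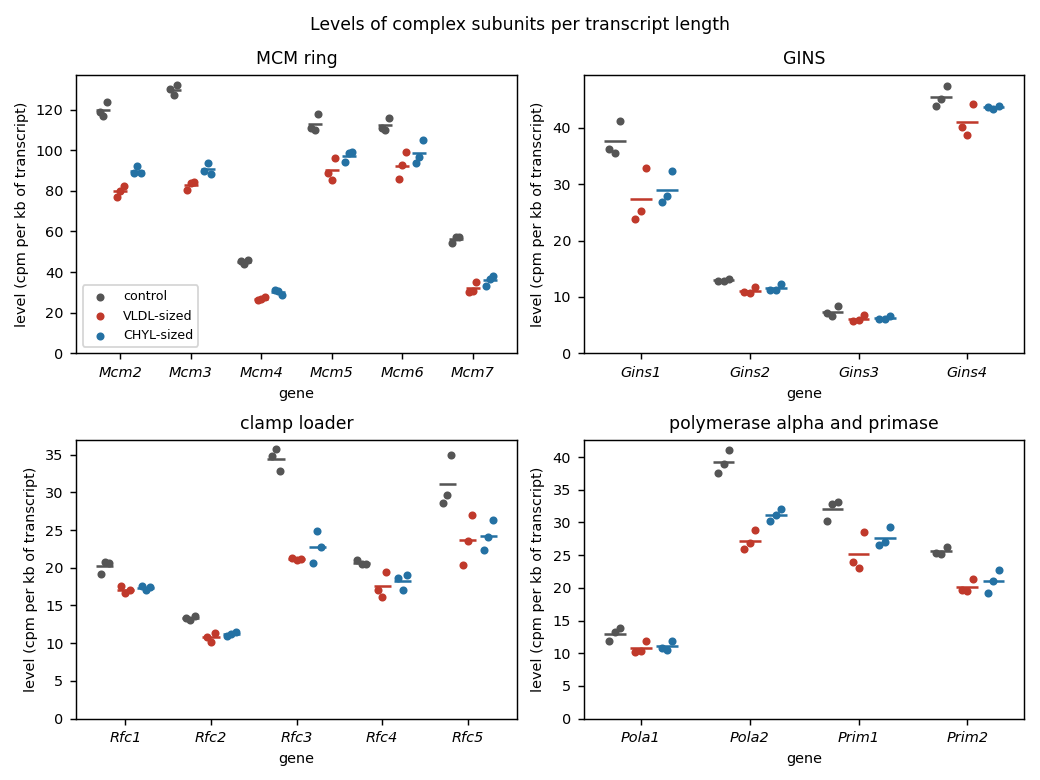
Level in cpm per kb of the longest coding transcript for the subunits of 4 complexes, with points for libraries and lines for group means. In the MCM ring *Mcm4* and *Mcm7* lie lowest in all groups, in GINS *Gins1* and *Gins4* lie highest, and *Rfc3* is the highest loader subunit in control but not after either particle.

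Without a replicate block, limma-voom called no gene different between VLDL-sized and CHYL-sized particles at an adjusted p under 0.05. This held among the 39 and among all 12637 genes (0.0%). edgeR called none of the 39 either, and DESeq2, which gave no adjusted p for *Orc1*, *Gins3* and *Rfc4*, called none of the others. At an unadjusted p under 0.05, 14 of the 39 genes and 813 of all genes passed, and over all genes DESeq2 called 12 higher and 12 lower. With the replicate block, limma-voom called 147 of all genes. Among these were 3 of the 39, *Cdc6*, *Pola2* and *Ccne2*, lower after VLDL-sized particles (adjusted p = 0.024, 0.044 and 0.048). Omitting all libraries of replicate 3, *Ccne1*, *Chaf1a*, *Mcm2*, *Cdc6* and *Mcm4* were called lower after VLDL-sized than after CHYL-sized particles, 5 of the 39, beside 114 of all genes (0.92%). The log2 difference of VLDL-sized minus CHYL-sized was below 0 for 38 of the 39 genes, with a median of -0.11, whereas 50.5% of all genes were below 0. All 3 VLDL-sized libraries lay below all 3 CHYL-sized libraries for 16 of the 39 genes, compared with 5.63% of all genes. The largest difference was that of *Cdc6*, -0.37 with a 95% interval from -0.64 to -0.10 (adjusted p = 0.63). *Ccne1* had -0.34 (interval -0.65 to -0.03, adjusted p = 0.74) and *Ccne2* had -0.28 (interval -0.41 to -0.14, adjusted p = 0.51). For *Chaf1a* the difference was -0.21 (interval -0.33 to -0.09, adjusted p = 0.51). The intervals, which are not adjusted for the number of genes, included 0 for 25 of the 39 genes and reached from -0.65 to 0.24 over all of them. *Pole* was the only gene above 0, at 0.09 (interval -0.05 to 0.24), and the difference of *Pcna* was -0.01 (interval -0.19 to 0.17).

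The other genes of replication and of the cell cycle were taken from lists of known functions, also chosen with earlier results of these data known. Of 20 other fork proteins, 14 fell and 1 rose after VLDL-sized particles, with a median log2 fold change of -0.50, and 13 fell and 1 rose after CHYL-sized particles, with a median of -0.40. *Timeless*, which encodes a fork protection factor, had log2 fold changes of -1.10 and -0.92 (adjusted p = 2.4e-06 and 1.0e-05), and *Wdhd1*, which couples polymerase alpha to the helicase, had -1.05 and -0.75. Of 14 other origin and kinase factors, 6 fell and 2 rose after VLDL-sized particles, with a median of -0.14, or 8 and 1 with library size as the only scaling. *Gmnn*, the gene of the CDT1 inhibitor geminin, fell by 0.68 on the log2 scale (adjusted p = 6.1e-05), and *Orc4*, another origin recognition subunit, rose by 0.55 (adjusted p = 0.00043). Of 13 other genes of nucleotide supply, 7 fell and 2 rose, with a median of -0.21. With library size as the only scaling 9 fell and 1 rose, and with the replicate block 9 fell and 2 rose. *Mthfd2*, a mitochondrial folate enzyme, rose from 156 ± 36.3 to 276 ± 48.6 cpm (SD, n = 3), and *Dut*, which removes dUTP, fell from 69.3 ± 6.44 to 43.2 ± 6.69 cpm (SD, n = 3).

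Of 11 genes of chromatin copying, 9 fell and 1 rose after each particle. *Uhrf1*, which carries DNA methylation over to the new strand, was at 346 ± 20.5 cpm in control, 163 ± 3.02 after VLDL-sized and 194 ± 3.54 after CHYL-sized particles (SD, n = 3). Of 13 genes of the checkpoint and fork repair, 10 fell after each particle, and 1 rose after VLDL-sized particles. *Ung*, which removes uracil from DNA, had log2 fold changes of -1.38 and -0.98 (adjusted p = 1.4e-05 and 0.00015). Of 17 genes of the E2F, RB and CDK2 group, 11 fell after each particle, while 2 rose after VLDL-sized and 1 after CHYL-sized particles. *E2f8* and *E2f7*, which encode repressive E2F factors, fell by 1.34 and 0.82 on the log2 scale after VLDL-sized particles (adjusted p = 1.8e-07 and 3.7e-05). *Cdk2* and *Ccna2*, the gene of cyclin A, fell by 0.63 and 0.52 (adjusted p = 1.3e-05 and 2.2e-05).

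Among 28 genes of mitosis and G2/M, 22 fell after VLDL-sized and 21 after CHYL-sized particles, with medians of -0.36 and -0.28. DESeq2 called 23 of them lower in each comparison. *Plk1*, a mitotic kinase, had log2 fold changes of -0.73 and -0.51 (adjusted p = 1.2e-05 and 0.00019). *Top2a*, the gene of a topoisomerase that untangles DNA, fell by 0.37 and 0.33 on the log2 scale (adjusted p = 0.00053 and 0.0018). *Mki67*, the gene of the proliferation marker Ki-67, was at 891 ± 43.2, 914 ± 32.8 and 854 ± 79.3 cpm in control, VLDL-sized and CHYL-sized groups (SD, n = 3), and did not pass, with log2 fold changes of 0.04 and -0.06 (adjusted p = 0.71 and 0.55). Of the 16 tested among 20 G1 cyclins, CDK inhibitors and Myc family genes, 7 fell and 2 rose after VLDL-sized particles, and with the replicate number as a block 9 fell and 4 rose. *Ccnd1*, the gene of cyclin D1, went from 500 ± 46.1 to 189 ± 38.3 and 256 ± 53.2 cpm (SD, n = 3), with log2 fold changes of -1.42 and -0.98 (adjusted p = 0.00011 and 0.0018). *Cdkn1a*, the gene of the CDK inhibitor p21, rose by 0.37 and 0.32 (adjusted p = 0.0024 and 0.0080). *Myc* had -0.70 and -0.25, with standard errors of 0.32 and 0.30 (adjusted p = 0.12 and 0.60). With the block it passed after VLDL-sized particles (adjusted p = 1.6e-05) and after CHYL-sized particles, at -0.27 (adjusted p = 0.013). Of the 13 tested among 14 p53 target genes, 5 rose and 2 fell after VLDL-sized particles, with a median of 0.19. With library size as the only scaling 4 rose and 4 fell, and with the replicate block 7 rose and 3 fell. *Gadd45a* rose most, by 1.80 on the log2 scale (adjusted p = 0.00021) from 4.34 cpm in control, whereas *Sesn1* fell by 1.34 (adjusted p = 0.0041). After CHYL-sized particles 5 of the p53 target genes rose and 3 fell, with a median of 0.08.

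**Figure D5:**
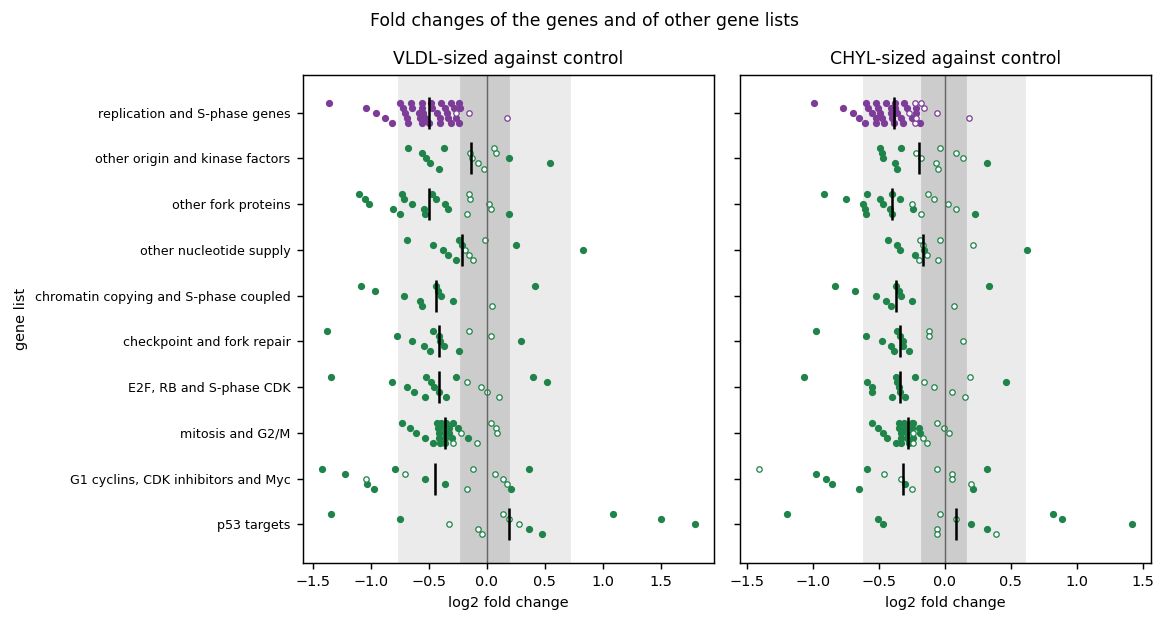
Log2 fold change against control of the 39 genes (purple) and of 9 other gene lists (green), for VLDL-sized (left) and CHYL-sized (right) particles. Filled points had an adjusted p under 0.05, black lines are list medians, and the dark and light bands hold the middle 50% and 90% of all genes tested. The medians of the 39 genes, -0.50 and -0.39, lie outside the dark band, and the median of the p53 targets, 0.19 and 0.08, lies inside it.

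With library size as the only scaling the median of all genes moved to -0.09 after VLDL-sized and -0.08 after CHYL-sized particles, and 38 and 37 of the 39 genes fell. Over all genes that scaling gave 1507 higher and 3312 lower after VLDL-sized particles, against 2244 and 2256 otherwise. After CHYL-sized particles it gave 1068 higher and 2514 lower, against 1610 and 1639. Some calls depended on single libraries or on the tool or filter. After VLDL-sized particles, *Rfc4* did not pass without control replicate 1, 2 or 3 or VLDL-sized replicate 1 or 2 (adjusted p = 0.059 to 0.15), nor with DESeq2 (0.050) or without the filter on low counts (0.089). *Pola1* did not pass without control replicate 2 or 3 or VLDL-sized replicate 1 or 2 (adjusted p = 0.082 to 0.099), nor *Tyms* without control replicate 3 or VLDL-sized replicate 1 or 2 (adjusted p = 0.051 to 0.081). The call was also lost for *Rfc5* without VLDL-sized replicate 1 (adjusted p = 0.062) and for *Gins2* without VLDL-sized replicate 2 (adjusted p = 0.051).

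After CHYL-sized particles, *Mcm6* did not pass without control replicate 1, 2 or 3 or CHYL-sized replicate 1 or 2 (adjusted p = 0.084 to 0.14), and *Mcm5* did not pass without CHYL-sized replicate 1 (adjusted p = 0.051). The same held for *Orc1* without control replicate 1 or 2 or CHYL-sized replicate 1 or 3 (adjusted p = 0.052 to 0.10), and without the filter on low counts (0.052). *Gins1* lost its call without control replicate 1 or 3 or CHYL-sized replicate 1 or 2 (adjusted p = 0.062 to 0.11), and *Rfc5* without control replicate 2 or 3 or CHYL-sized replicate 1 or 2 (adjusted p = 0.057 to 0.12). In the other direction, *Gins3* passed without control replicate 2 and *Gins4* without VLDL-sized replicate 3 in the VLDL-sized comparison (adjusted p = 0.034 and 0.019). In the CHYL-sized comparison *Gins2*, *Pola1* and *Tyms* passed without CHYL-sized replicate 3 (adjusted p = 0.041, 0.046 and 0.031) and *Pola1* without control replicate 1 (adjusted p = 0.028).

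Of the 39 genes, 21 overlap another annotated gene, and 10 of them overlap a gene of at least 10 cpm on the opposite strand, *Rfc2* with *Lat2* and *Chaf1a* with *Ubxn6* among them. These overlaps are of whole gene spans, introns included, and the exon sequence shared was not measured. Whether the library kept strand is not given in the sources used here, so reads from shared exons could not be told apart by strand. The 3 annotated pseudogenes of *Pcna* and *Tyms* had at most 6.21 counts in any library.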

How the data were processed

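RNA of RAW 264.7 cells was sequenced as 9 random-primed libraries, each pooled from the samples of 1 condition and experiment. Per the methods and labels, the authors quantified transcripts with Salmon 0.14.1 on GENCODE M22 (GRCm38.p6) and summed them to genes with tximport. The deposited values are estimated counts per gene. The methods mention scaling, but 58.3% of values above 10 were whole (within 1e-06), and they were used as unscaled counts. Genes above 10 counts in 3 or more libraries were fitted with limma-voom 3.58.1 (R 4.3.3) after TMM scaling by edgeR 4.0.16, with group as the only term, all 9 libraries in 1 fit and Benjamini-Hochberg adjustment. Cpm values are TMM-scaled. Alternatives were DESeq2 1.42.0, limma-trend, the quasi-likelihood test of edgeR, other scalings and filters, the 2 groups alone, a replicate block and leaving out each library. Over all genes tested, deviations from the group mean correlated weakly between same-numbered libraries, with r of 0.14, 0.13 and 0.29 for VLDL-sized and control. For CHYL-sized and control, r was 0.12, 0.07 and 0.34. Over the 39 genes these values were 0.44, 0.22 and 0.64, and 0.29, 0.45 and 0.61. Blocked results are given where they change a call of the 39 genes. In the other lists the block also moved some calls, and not all of these are given. The members and lists were chosen with earlier results of these data known. All 39 members are named, and genes of other lists only among the 3 largest called changes per list and comparison, besides *Cdkn1a*, *Ccnd1*, *Myc*, *Ccna2*, *Cdk2*, *Mki67* and *Top2a*. Promoters came from RefSeq (GRCm38.p6). Gene positions and transcript lengths came from GENCODE, in the release just before the M22 of the authors. A protein motif search that had been planned was not run.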

Additional observations from a re-analysis of the deposited data

How the results depend on the processing

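None of the 39 genes that was called against control changed direction under any alternative run. Between the particles, small differences that were not called, such as those of *Pcna*, *Gins3*, *Rfc4*, *Rfc5* and *Pola1*, went above 0 when 1 treated library was left out, at most to 0.08 for *Pcna* without CHYL-sized replicate 3. Leaving out 1 library at a time, 32 to 37 of the 39 genes were called after VLDL-sized and 26 to 33 after CHYL-sized particles. Over all genes, 3482 to 4301 and 2320 to 3101 were called in these runs, in either direction. The median of the 39 genes after VLDL-sized particles ran from -0.56 (without VLDL-sized replicate 3) to -0.49. With library size as the only scaling the medians were -0.59 and -0.47, and with the replicate block added -0.60 and -0.47. With the replicate block alone, 39 genes were called after VLDL-sized particles (6058 of all genes) and 38 after CHYL-sized particles (4949 of all genes). The calls gained after CHYL-sized particles were *Gins2* (adjusted p = 0.014), *Gins3* (0.021), *Rfc4* (0.041), *Pola1* (0.0031), *Prim1* (0.0092) and *Tyms* (0.0056), which were lower, and *Pcna*, which was higher at 0.19 (0.0029). *Myc*, outside the 39, had -0.27 (0.013). Over all genes tested, deviations of same-numbered CHYL-sized and control libraries had r of 0.12, 0.07 and 0.34. Those of VLDL-sized and CHYL-sized ones had 0.03, 0.12 and 0.36. Over the 39 genes the values were 0.29, 0.45 and 0.61, and 0.41, 0.67 and 0.77. Not every library correlated best with its own number. Control replicate 1, for example, had r of 0.16 with CHYL-sized replicate 2 over all genes tested, and 0.44 over the 39 genes.

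Between the particles, 0 genes of the 39 were called without the block, 3 with it (*Cdc6*, *Pola2* and *Ccne2*, beside 147 of all genes), 5 when all libraries of replicate 3 were omitted (*Ccne1*, *Chaf1a*, *Mcm2*, *Cdc6* and *Mcm4*, beside 257 of all genes) and 6 with the block and library size only (*Ccne1*, *Mcm2*, *Cdc6*, *Pola2*, *Tk1* and *Ccne2*, beside 168 of all genes). The last 2 settings were chosen after seeing the data. The cause was not tested. With 3 libraries per group, differences between the particles as large as -0.37 (*Cdc6*, standard error 0.12) were not called.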

Other observations

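*Hmox1*, which encodes the heme-degrading enzyme heme oxygenase 1, ends 8979 bases before the start of *Mcm5* on chromosome 8 and lies on the same strand (75093621 to 75100589 in GRCm38). It was chosen after its values had been seen. *Hmox1* rose by 4.78 on the log2 scale (standard error 0.18, adjusted p = 3.9e-08, limma-voom) after VLDL-sized and by 4.41 (adjusted p = 9.0e-08) after CHYL-sized particles, while *Mcm5* fell by 0.33 and 0.22.

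The ratio of *Ccne1* to *Ccne2*, the genes of both cyclins E, was 1.30, 1.30 and 1.73 in control, 1.11, 1.24 and 1.53 after VLDL-sized and 1.28, 1.37 and 1.38 after CHYL-sized particles. Unlike the ratios within the MCM ring, these overlapped between the groups. Within CAF-1, *Chaf1b* was the higher subunit in all 3 groups, at 21.2, 14.4 and 15.9 cpm per kb.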
